A study of Homo sapiens with 8 samples.

Results

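The 42 genes described here encode chemokines, cytokines and members of the TNF superfamily, together with subunits, inhibitors and target genes of the transcription factor NF-kB. They were chosen by name, with earlier results of these data known, and were matched through the current symbol of each probe's accession. Of the 42, 40 were matched to 49 of the 41000 probes on the array, which in all named 17240 genes. NFKB2 and CXCL16 were matched to no probe and were not analysed here. All values are from CAPAN-2, an established human pancreatic adenocarcinoma cell line, on 8 Agilent 2-colour arrays. ErbB2-KD cells had been stably transfected with a puromycin vector encoding an ErbB2 shRNA, and 4 such clones (EV7, EV12, EV9 and EV18, on arrays 1 to 4) were each set against 1 RNA pool of 4 empty-vector clones called NT. MUC4-KD cells had been infected with a pRetroSuper retrovirus targeting MUC4 and selected with G418, and 4 arrays set RNA labelled MUC4-KD against 1 pool of 4 empty-vector clones called Mock. The methods state 4 MUC4-KD clones, which the labels do not name. All lines were grown from single clones by limiting dilution, so an effect of the shRNA and differences between clones cannot be told apart within 1 array, and each pool counts as 1 control sample whose own spread enters no test.

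NF-kB is a family of dimeric transcription factors that inhibitor proteins of the IkB family hold in the cytoplasm. Ligands such as TNF and IL-1 activate the IkB kinases, the inhibitor is degraded, and the freed dimer drives chemokines, cytokines, adhesion molecules and survival factors, and also its own inhibitors, which closes a negative feedback loop. A second, non-canonical branch is activated by receptors such as that of lymphotoxin and acts through RELB. Pancreatic adenocarcinoma cells are known for constitutive NF-kB activity and for secretion of chemokines that attract neutrophils and monocytes.

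In a channel, 56.7% to 74.2% of all probes were well above background, the median spot signal was 100 to 593 and no spot was saturated. All 8 markers of a ductal epithelial line were above background in all 16 channels. Of 8 leukocyte markers, CD14, CD68 and CD79A were above background in all 16 channels and PTPRC, ITGAM and LYZ in 1, and none of the first 3 passed the test in either experiment. Of 5 matched markers of fibroblasts and endothelium none was above background in all 16 channels, with DCN and PDGFRB in 0 and VWF in 14. The targeted genes were read first. ERBB2 had log2 ratios of ErbB2-KD over NT of -0.58, -0.32, -0.33 and -0.38 on arrays 1 to 4, below 0 on all 4 but not past the test (mean -0.40 ± 0.12 SD, n = 4, limma adjusted p = 0.145), and its second, dimmer probe had a mean of 0.04. MUC4 had 4 probes. In labelled MUC4-KD over Mock the brightest had a mean of 0.27 (adjusted p = 0.167) and another 0.41 (adjusted p = 0.0984), and both were slightly below 0 on array 4 (-0.05 and -0.04) and did not pass. The other 2 did, at 1.34 (adjusted p = 0.0355) and, for the probe with the largest ratio, at 1.71, 2.34, 2.21 and 1.08 (mean 1.84 ± 0.57, adjusted p = 0.00804). No MUC4 probe was called lower, and those called higher go against the label. The dyes of the labels give this direction, and the study's own list of changed genes runs the opposite way. The study reports loss of MUC4 protein on blots and lower MUC4 by qRT-PCR in its MUC4-KD clones. That evidence bears on the labels too and was not analysed here. The ratios are therefore called those of the RNA labelled MUC4-KD, and every sign given for that experiment turns if the labels of its channels are crossed.

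CCL2, LTB and NLRP3 were the 3 members called in both experiments, each in opposite directions as labelled. The share of all genes called in both was not computed, so the 3 cannot be set against it. In ErbB2-KD over NT, 33 members were tested and 6 passed an adjusted p of 0.05. NLRP3 was the 1 that was higher, where 0.748% of all 12028 genes tested were called higher. CCL2, CCL5, LTB, TNFSF15 and RELB were the 5 that were lower, where 1.19% of all genes were called lower. The median log2 ratio of the 33 was -0.74 (a log2 ratio of -1 is a halving), with 24 below 0, while the median of all genes was -0.0025. In such bulk RNA, fewer cells of a type and less RNA per cell cannot be told apart. In labelled MUC4-KD over Mock, 39 members were tested and 21 were called. Of these, 19 were higher, beside 12.2% of all 12289 genes, and 2 were lower, beside 10.9%. The median of the 39 was 0.66, with 27 above 0, and that of all genes was -0.01. These counts used limma on the mean of 4 arrays against 0, adjusted over all probes. With each array left out in turn, 0 of the 6 ErbB2-KD calls and 4 of the 21 labelled MUC4-KD calls (BIRC3, CXCL1, IL1A and LTB) passed every time; 0, 0 and 1 members were called without ErbB2-KD arrays 1, 3 and 4, and 9, 11 and 4 without labelled MUC4-KD arrays 1, 2 and 3. With median centring in place of loess, limma called 1 member in ErbB2-KD and 0 in labelled MUC4-KD (19 and 16 at an unadjusted p of 0.05), with 25 of 33 below 0 and 28 of 39 above 0. Wherever fewer members were called without an array or with median centring, a smaller share of all genes was called too.

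**Figure D1:**
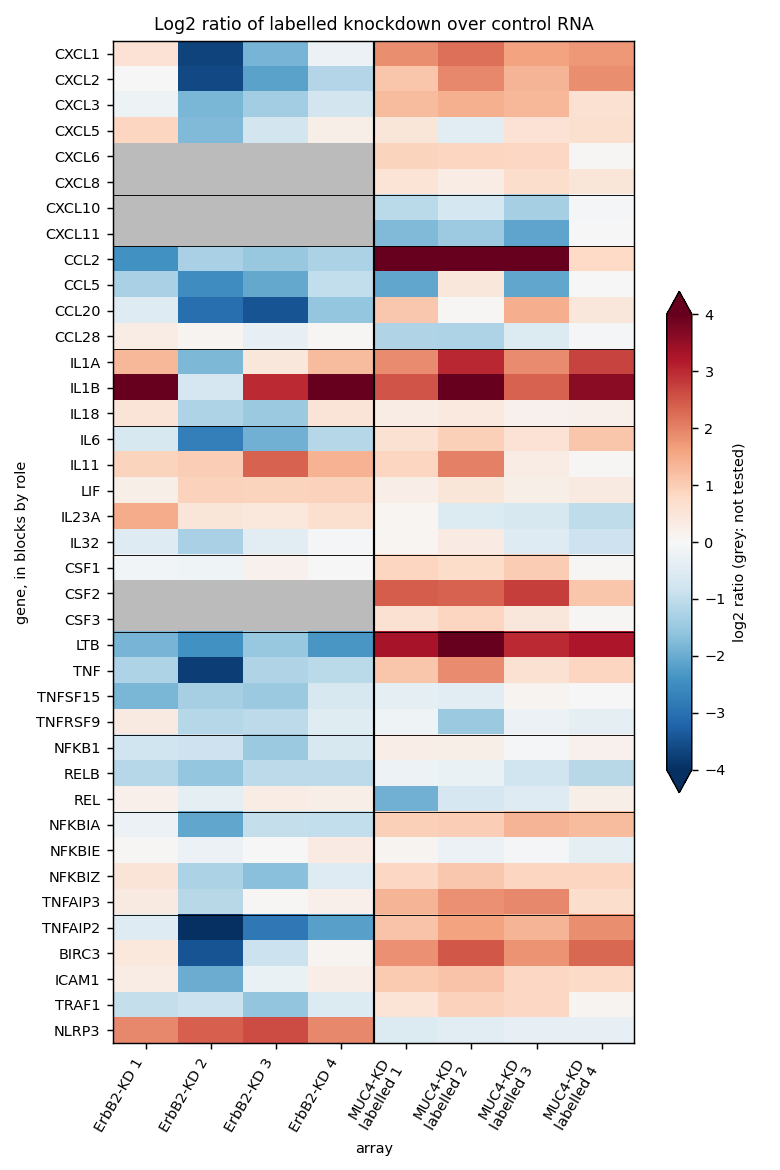
Log2 ratio of the RNA labelled as the knockdown over its control pool for each member tested (rows, in blocks by role) on each of the 8 arrays (columns), red for higher and blue for lower in the labelled knockdown; colours end at 4 and -4, and grey marks members not tested in ErbB2-KD. LTB is blue on all 4 ErbB2-KD arrays and red on all 4 labelled MUC4-KD arrays, NLRP3 shows the reverse, and the column of ErbB2-KD array 2 is the bluest, with 28 of 33 members below 0.

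The signs held on every array for more members than passed the test. In ErbB2-KD, 15 of 33 members were below 0 on 4 of 4 arrays, beside 15.0% of all genes, and 4 (IL11, IL23A, LIF and NLRP3) were above 0 on all 4, beside 13.0%. In labelled MUC4-KD, 25 of 39 were above 0 on 4 of 4 arrays, beside 25.5% of all genes, and 6 were below 0 on all 4, beside 24.9%. The arrays differed in how far the members moved. The median of the members was 0.04, -1.30, -1.04 and -0.25 on ErbB2-KD arrays 1 to 4, lowest on arrays 2 and 3, and array 1 had 17 members above 0 and 16 below. On the labelled MUC4-KD arrays the medians were 0.60, 0.86, 0.59 and 0.37. At least a 2-fold decrease was seen for 22 of 33 members on ErbB2-KD array 2, where 7.11% of all genes moved that far down, and for 6 on array 1. ErbB2-KD array 2 also had the highest median spot signals of the 8 arrays, 593 in red and 248 in green. It lay on slide 1 with labelled MUC4-KD array 4. Clone, signal and slide cannot be told apart for that array.

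The neutrophil-attracting chemokines CXCL1, CXCL2, CXCL3, CXCL5, CXCL6 and CXCL8 carry the ELR motif and bind CXCR1 and CXCR2. They lie within a run of 9 protein-coding genes on chromosome 4 (GRCh38.p14 gene order), beside PF4V1, PF4 and PPBP. Of the 6, 5 were higher in labelled MUC4-KD and limma called 0 of the 4 tested in ErbB2-KD (2 at an unadjusted p of 0.05). CXCL1 had log2 ratios of 1.87, 2.22, 1.62 and 1.73 on labelled MUC4-KD arrays 1 to 4, a 3.63-fold increase (mean 1.86 ± 0.26, adjusted p = 0.00271). In ErbB2-KD the same probe gave 0.57, -3.70, -1.86 and -0.25, a mean of -1.31 ± 1.89 that did not pass (adjusted p = 0.376). The ErbB2-KD clones thus spanned more than 4 log2 units for CXCL1 while the labelled MUC4-KD arrays lay between 1.62 and 2.22.

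CXCL2 was 2.96-fold higher in labelled MUC4-KD, with 1.1, 1.93, 1.37 and 1.87 (adjusted p = 0.00628). Its ErbB2-KD ratios were -0.01, -3.60, -2.14 and -1.18 (mean -1.73, adjusted p = 0.182), and the order of the clones was that of CXCL1. CXCL3 had 1.27, 1.42, 1.32 and 0.61 in labelled MUC4-KD (mean 1.15 ± 0.37, adjusted p = 0.0114) and -0.21, -1.83, -1.39 and -0.73 in ErbB2-KD (mean -1.04, adjusted p = 0.133). The second probes of CXCL2 and CXCL3 ran the same way, with labelled MUC4-KD means of 1.34 and 1.51. These 3 genes are close paralogs, and signal shared between their probes was not tested. CXCL8, the interleukin-8 gene, had 0.55, 0.31, 0.70 and 0.49 (mean 0.51 ± 0.16, adjusted p = 0.033). CXCL6 had 0.88, 0.87, 0.83 and 0.04 (adjusted p = 0.047) and was not well above background in Mock on any array, so it was at least 1.58-fold higher. Both genes are dim, and Feature Extraction's own log ratios gave larger means, of 1.83 for CXCL8, 3.48 for CXCL6 and 1.75 for CXCL3. CXCL5 did not pass, with a mean of 0.32 in labelled MUC4-KD and -0.35 in ErbB2-KD, and its 2 probes disagreed in sign in the former (0.32 and -0.13). CXCL6 and CXCL8 were not tested in ErbB2-KD, where they were above background on at most 2 of 4 arrays in either RNA.

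The promoters of CXCL1, CXCL2 and CXCL3 are shown because they share 1 kB element, the site that NF-kB dimers bind. The same capital letters were in the promoters of CXCL5 and TNFRSF9, which were called in no comparison, and of CXCL6. Whether the element bears on the ratios was not tested. The stretches are 60 bases before the RefSeq gene start, 5′ to 3′ on the gene's strand, in build GRCh38.p14 at chr4:73869290-73869349 (plus strand) for CXCL1, chr4:74099238-74099297 (minus strand) for CXCL2 and chr4:74038733-74038792 (minus strand) for CXCL3. Capitals mark matches to the NF-kB consensus, searched by name on both strands; here a match on each strand overlaps by all but 1 base.
CXCL1: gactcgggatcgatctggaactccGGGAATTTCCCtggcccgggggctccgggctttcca
CXCL2: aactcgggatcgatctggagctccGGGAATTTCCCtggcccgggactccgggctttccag
CXCL3: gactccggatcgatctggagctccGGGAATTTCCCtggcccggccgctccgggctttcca
The CXCL1 and CXCL3 stretches were identical at 56 of 60 bases. In the 250 bases before the start, 19 of the 33 members found in the promoter table held the consensus (57.6%), against 3498 of all 35116 promoters (9.96%). Target genes of NF-kB are among the members by choice, so this excess was built into the list and is no result of these arrays. Each member counted with 1 promoter, whereas the total counted every entry, so a gene could enter it more than once. Split by the calls, they were in 10 of 18 promoters of members higher in labelled MUC4-KD (55.6%) and in 9 of 13 of the other members tested there (69.2%).

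CXCL10 and CXCL11, ligands of CXCR3 that attract T cells and are known as interferon-induced genes, were below 0 on all 4 labelled MUC4-KD arrays. Of the 6 ELR chemokines, 5 were called higher there. CXCL11 was lower, with -1.77, -1.47, -2.11 and -0.03 on arrays 1 to 4 (mean -1.34 ± 0.92, adjusted p = 0.0419). CXCL10 had -1.07, -0.70, -1.33 and -0.04, which did not pass (mean -0.78, adjusted p = 0.0535). Both genes were near 0 on array 4 and well below it on the other 3. With Feature Extraction's log ratios the CXCL11 mean was -2.93, and array 4 had -1.56 for CXCL11 and -1.19 for CXCL10. How near 0 that array lies thus depends on the processing. In ErbB2-KD both were at background in nearly every channel and were not tested. The CXCL10 promoter holds, beside 2 kB matches, the interferon-stimulated response element TTTCNNTTTC, shown in capitals from chr4:76023684-76023743 (GRCh38.p14, minus strand) because it was the only member with it.
CXCL10: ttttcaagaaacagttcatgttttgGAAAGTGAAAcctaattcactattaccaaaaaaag
Those letters, on either strand, were in 3.02% of all promoters.

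Of the 4 CC chemokines, CCL2, CCL5, CCL20 and CCL28, 2 were lower in ErbB2-KD and 1 was higher in labelled MUC4-KD. CCL2, which attracts monocytes, was called in both. Its log2 ratios were 4.62, 4.69, 4.05 and 0.80 in labelled MUC4-KD and it was not well above background in Mock on any array, so it was at least 10.6-fold higher (measured mean 3.54 ± 1.85, adjusted p = 0.0215). In ErbB2-KD they were -2.42, -1.30, -1.52 and -1.26 (mean -1.62 ± 0.54, a 3.08-fold decrease, adjusted p = 0.0352), and the ErbB2-KD RNA was above background on 1 of 4 arrays. Labelled MUC4-KD array 4 stood apart from the other 3 for this gene, and without it the mean was 4.45. Feature Extraction's log ratios gave means of 8.03 and -4.48. In labelled MUC4-KD they were 6.38 on array 4 and 8.51 to 8.66 on the others.

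CCL5, a chemoattractant of T cells, had -1.31, -2.48, -2.04 and -0.97 in ErbB2-KD, a 3.25-fold decrease (mean -1.70 ± 0.68, adjusted p = 0.0455). In labelled MUC4-KD it split, with -2.09 on both arrays 1 and 3 against 0.44 and -0.02 on arrays 2 and 4. No change was called there (adjusted p = 0.195). CCL20, the ligand of CCR6, had -0.51, -3.03, -3.47 and -1.56 in ErbB2-KD (mean -2.14, adjusted p = 0.105) and 1.08, 0.04, 1.45 and 0.44 in labelled MUC4-KD (mean 0.75, adjusted p = 0.0719). Neither passed, but the arrays of the 2 experiments did not overlap. CCL28, an epithelial chemokine, had means of 0.04 and -0.76 and was not called.

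**Figure D2:**
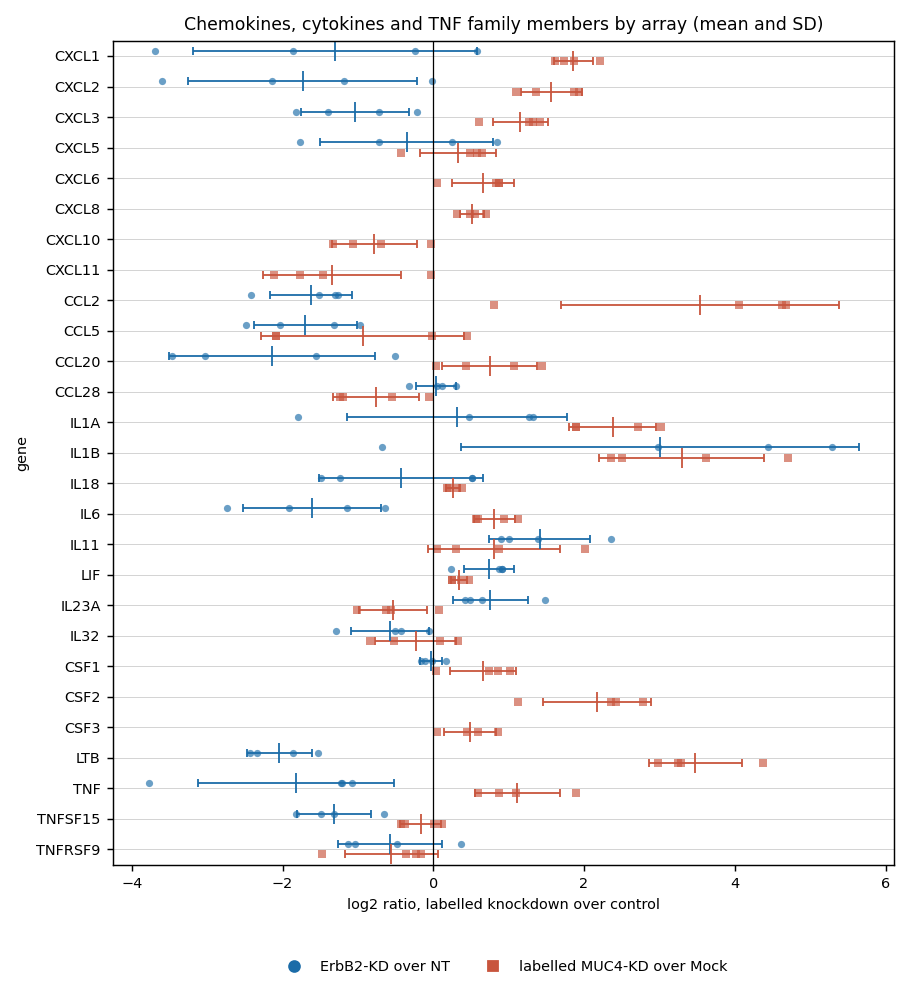
Log2 ratio of labelled knockdown over control (horizontal axis) for the chemokines, cytokines and TNF family members tested (rows); circles are ErbB2-KD arrays, squares are labelled MUC4-KD arrays, and the vertical tick with its bar is the mean and SD of 4 arrays. LTB lies between -2.43 and -1.52 in ErbB2-KD and between 2.99 and 4.38 in labelled MUC4-KD, whereas IL1B has high values in both.

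IL1A and IL1B encode the 2 forms of interleukin-1, which signal through one receptor and activate NF-kB. Both were higher in labelled MUC4-KD. IL1A had 1.89, 3.03, 1.90 and 2.71, a 5.22-fold increase (mean 2.38 ± 0.58, adjusted p = 0.00458). In ErbB2-KD it had 1.32, -1.79, 0.47 and 1.27 (mean 0.32, adjusted p = 0.812). IL1B had 2.51, 4.71, 2.36 and 3.61 in labelled MUC4-KD, a 9.84-fold increase (mean 3.30 ± 1.09, adjusted p = 0.00778). It was also high in 3 of 4 ErbB2-KD clones, with 4.44, -0.68, 2.98 and 5.29 on arrays 1 to 4. Over the 4 clones this was not called (mean 3.01 ± 2.64, adjusted p = 0.178). Without the low array 2 (clone EV12) the mean was 4.24 with a limma adjusted p of 0.0249. That was the 1 of 4 removals that passed. The others had means down to 2.25 and limma adjusted p up to 0.479. IL18 had means of -0.43 and 0.26 and was not called, and IL1RN, the receptor antagonist, was at background in most channels and was tested in neither experiment.

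Among the other cytokines, IL6 was the 1 of 5 called in labelled MUC4-KD, with 0.60, 0.94, 0.57 and 1.12 (mean 0.81 ± 0.27, a 1.75-fold increase, adjusted p = 0.0178). IL6 signals through gp130 and STAT3. Its ErbB2-KD ratios were -0.64, -2.73, -1.91 and -1.14 (mean -1.61, adjusted p = 0.0876), below 0 on all 4 arrays. Its 60 bases at chr7:22727102-22727161 (GRCh38.p14, plus strand) hold 1 kB match, in capitals.
IL6: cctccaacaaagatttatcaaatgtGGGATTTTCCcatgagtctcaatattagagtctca
IL11 and LIF, which belong to the same gp130 family, had ErbB2-KD ratios of 0.89 to 2.36 and 0.24 to 0.92, above 0 on all 4 arrays, with adjusted p of 0.0654 and 0.088. IL23A, a subunit of interleukin-23, had 1.49, 0.48, 0.41 and 0.64 in ErbB2-KD (mean 0.76, adjusted p = 0.138) and 0.07, -0.56, -0.63 and -1.01 in labelled MUC4-KD (mean -0.53, adjusted p = 0.0866). IL32 had means of -0.57 and -0.24. Of the colony-stimulating factors, which direct the growth of granulocytes and macrophages, CSF2 was 4.50-fold higher in labelled MUC4-KD, with 2.42, 2.36, 2.78 and 1.12 (adjusted p = 0.00849). CSF1 and CSF3 had means of 0.66 and 0.49 there and were not called (adjusted p = 0.0506 and 0.0698). CSF2 and CSF3 were not tested in ErbB2-KD, where they were not above background on all 4 arrays, and CSF1 had a mean of -0.03.

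In the TNF superfamily, LTB was called in both experiments. LTB encodes lymphotoxin beta, which anchors lymphotoxin at the cell surface and whose receptor feeds the non-canonical NF-kB branch. Its ratios were -1.87, -2.43, -1.52 and -2.34 in ErbB2-KD, a 4.11-fold decrease (mean -2.04 ± 0.42, adjusted p = 0.0158). In labelled MUC4-KD they were 3.28, 4.38, 2.99 and 3.25, an 11.1-fold increase (mean 3.47 ± 0.62, adjusted p = 0.00232). Every array of one experiment lay more than 4 log2 units from every array of the other. The promoter stretch of LTB at chr6:31582477-31582536 (GRCh38.p14, minus strand) holds 1 kB match.
LTB: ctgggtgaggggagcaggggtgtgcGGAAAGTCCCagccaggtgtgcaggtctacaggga
TNF, the prototype ligand of the family, was 2.16-fold higher in labelled MUC4-KD with 1.09, 1.90, 0.59 and 0.87 (adjusted p = 0.0249). In ErbB2-KD it had -1.22, -3.77, -1.21 and -1.08, below 0 on all arrays and lowest on array 2 (mean -1.82 ± 1.30, adjusted p = 0.13). TNFSF15, a ligand of DR3, had -1.83, -1.32, -1.49 and -0.65 in ErbB2-KD, a 2.50-fold decrease (adjusted p = 0.0437), and -0.37, -0.43, 0.12 and 0.01 in labelled MUC4-KD (adjusted p = 0.392). Feature Extraction's log ratios gave -2.60 for the ErbB2-KD mean of TNFSF15, against -1.32 here, and its second probe gave -0.71 and did not pass. The receptor TNFRSF9 had means of -0.57 and -0.56 and was not called.

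Of the 3 NF-kB subunits tested, RELB was lower in ErbB2-KD, and limma called 0 in labelled MUC4-KD (1 at an unadjusted p of 0.05). NFKB1, which encodes the p105 precursor of p50, had -0.79, -0.83, -1.48 and -0.64 in ErbB2-KD, below 0 in all 4 clones (mean -0.93 ± 0.37, adjusted p = 0.0622). In labelled MUC4-KD it had 0.25, 0.24, -0.08 and 0.16 (mean 0.14, adjusted p = 0.381). RELB, the subunit of the non-canonical branch, had -1.13, -1.56, -1.06 and -1.05 in ErbB2-KD (mean -1.20 ± 0.24, a 2.30-fold decrease, adjusted p = 0.0228). RELB was also the 1 subunit below 0 on all 4 labelled MUC4-KD arrays, at -0.21, -0.27, -0.80 and -1.09, which did not pass (mean -0.60, adjusted p = 0.0615). REL had 0.22, -0.37, 0.30 and 0.24 in ErbB2-KD and -1.92, -0.67, -0.51 and 0.22 in labelled MUC4-KD, and neither was called (adjusted p = 0.802 and 0.153).

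**Figure D3:**
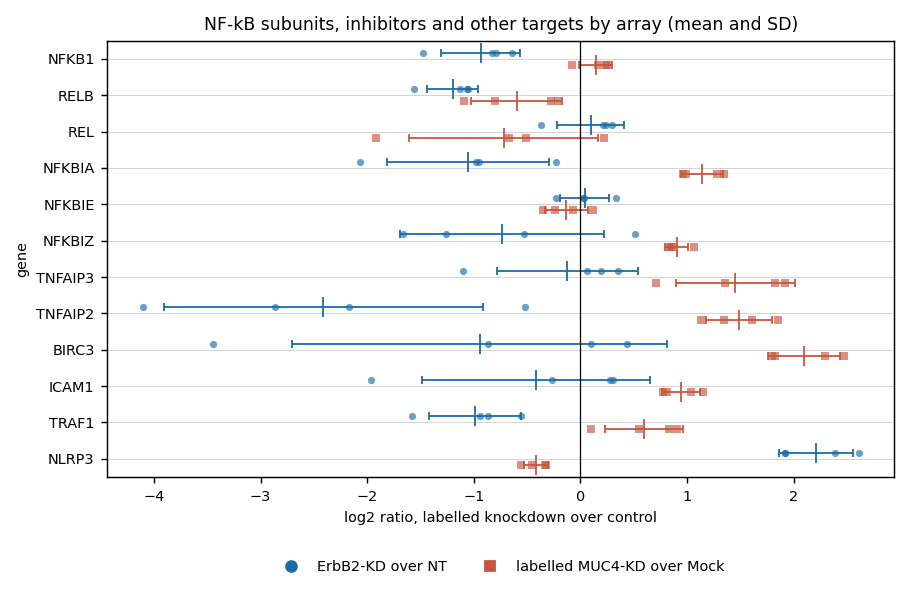
Log2 ratio of labelled knockdown over control (horizontal axis) for NF-kB subunits, inhibitors and other target genes (rows); circles are ErbB2-KD arrays, squares labelled MUC4-KD arrays, tick and bar the mean and SD of 4 arrays. NFKBIA lies between -2.07 and -0.23 in ErbB2-KD and between 0.97 and 1.35 in labelled MUC4-KD, and NLRP3 is the only gene here with all ErbB2-KD arrays above all labelled MUC4-KD arrays.

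Of the 4 inhibitors, 3 were higher in labelled MUC4-KD and 0 of 4 passed in ErbB2-KD, where limma called 1 of them at an unadjusted p of 0.05 and the methods' t-test called 0 after adjustment. NFKBIA encodes IkBα and is both an inhibitor and a target of NF-kB. It had 0.97, 0.99, 1.35 and 1.28 in labelled MUC4-KD (mean 1.15 ± 0.20, a 2.21-fold increase, adjusted p = 0.00585) and -0.23, -2.07, -0.95 and -0.98 in ErbB2-KD (mean -1.06, adjusted p = 0.142). TNFAIP3 encodes A20, a ubiquitin-editing enzyme that ends NF-kB signalling. It had 1.36, 1.83, 1.92 and 0.71 in labelled MUC4-KD (mean 1.45 ± 0.56, adjusted p = 0.013) and 0.36, -1.10, 0.06 and 0.19 in ErbB2-KD (mean -0.12, adjusted p = 0.857). Its second, dimmer probe had a labelled MUC4-KD mean of 0.48 and did not pass. NFKBIZ, the nuclear IkBζ, had the tightest increase of the 3, with 0.83, 1.06, 0.85 and 0.86 (mean 0.90 ± 0.11, adjusted p = 0.00749). In ErbB2-KD it had 0.52, -1.26, -1.67 and -0.53 (adjusted p = 0.343). NFKBIE was the inhibitor that was called in neither, with means of 0.04 and -0.13. The promoters of the feedback genes NFKBIA (chr14:35404796-35404855, minus strand) and TNFAIP3 (chr6:137867179-137867238, plus strand, GRCh38.p14) hold 1 and 2 kB matches.
NFKBIA: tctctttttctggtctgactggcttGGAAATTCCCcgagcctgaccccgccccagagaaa
TNFAIP3: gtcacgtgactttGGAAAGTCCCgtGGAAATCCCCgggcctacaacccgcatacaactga

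All 5 of the remaining target genes were called in labelled MUC4-KD, 4 higher and 1 lower. BIRC3, the caspase and NF-kB regulator cIAP2, had 1.82, 2.47, 1.80 and 2.29, a 4.27-fold increase (mean 2.10 ± 0.34, adjusted p = 0.00271). In ErbB2-KD its clones ran from 0.43 on array 1 through -3.45, -0.86 and 0.10 on the others (adjusted p = 0.492). TNFAIP2, a TNF-induced gene of endothelial and epithelial cells, had 1.13, 1.61, 1.35 and 1.85 in labelled MUC4-KD (adjusted p = 0.00516) and -0.52, -4.10, -2.87 and -2.17 in ErbB2-KD (mean -2.41 ± 1.50, adjusted p = 0.0996). ICAM1, an adhesion molecule for leukocytes, had 1.03, 1.15, 0.81 and 0.78 (mean 0.95, adjusted p = 0.00833) and 0.31, -1.97, -0.27 and 0.28 in ErbB2-KD (adjusted p = 0.643). TRAF1, an adaptor of TNF receptors, passed narrowly with 0.55, 0.91, 0.83 and 0.10 (adjusted p = 0.0497), and had -0.94, -0.87, -1.58 and -0.56 in ErbB2-KD (adjusted p = 0.0665).

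NLRP3 is the sensor of the inflammasome that processes IL-1β. It was the member called higher in ErbB2-KD, above 0 in every clone, with 1.92, 2.39, 2.61 and 1.92, a 4.63-fold increase (mean 2.21 ± 0.35, adjusted p = 0.0106). In labelled MUC4-KD it had -0.55, -0.45, -0.33 and -0.33, a smaller decrease (mean -0.42 ± 0.11, adjusted p = 0.0437). Feature Extraction's log ratios put the ErbB2-KD mean at 3.37.

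Genes of the wider pathway were read from 3 lists. Of 27 genes of the NF-kB signalling machinery that were tested, 4 were higher and 4 lower in labelled MUC4-KD (29.6% called in all), beside 12.2% and 10.9% of all genes. BCL3, an atypical IkB, had a mean of 1.85 and MALT1, a protease of the CARD-BCL10 complex, of 1.01. The adaptor MYD88 had a mean of -1.07 and the kinase RIPK1 of -1.02. Of 12 receptors of the ligands tested, 16.7% were called: 1 was higher, the decoy receptor IL1R2 with 1.15 (adjusted p = 0.0499), and 1 was lower, the lymphotoxin receptor LTBR with -0.67. Of 20 further NF-kB target genes, 5 were higher (25%) and 0 lower. SAA2 and SAA1, acute-phase proteins whose near-identical sequences leave their probes open to shared signal, had means of 1.93 and 1.70, while the apoptosis regulators CFLAR and BIRC2 had 1.06 and 1.03. The fifth, the transcription factor IRF1, had 0.70. In ErbB2-KD, limma called 0 of 27, 0 of 13 and 0 of 21 genes of these lists, with 5, 5 and 4 at an unadjusted p of 0.05. The medians of the lists were -0.03, -0.01 and -0.11 in ErbB2-KD and 0.01, 0.07 and 0.42 in labelled MUC4-KD.

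The difference between the experiments was tested directly, since they share no control pool. Of 33 members tested in both, 18 differed between ErbB2-KD and labelled MUC4-KD. The ErbB2-KD ratio was lower for 16, beside 6.98% of all 11711 genes, and higher for 2, IL23A and NLRP3, beside 5.04%. The 16 were CXCL1, CXCL2, CXCL3, CCL2, CCL20, IL6, LTB, TNF, TNFSF15, NFKB1, NFKBIA, NFKBIZ, TNFAIP3, TNFAIP2, BIRC3 and TRAF1. LTB differed by -5.51 ± 0.32 SE (adjusted p = 0.00012), CCL2 by -5.17 ± 0.77 (adjusted p = 0.00631) and TNFAIP2 by -3.90 ± 0.62 (adjusted p = 0.00758). The order of LTB and CCL2 changes with the background correction, since Feature Extraction's log ratios put them at -5.78 and -12.52. NLRP3 had the opposite difference, 2.63 ± 0.20 (adjusted p = 0.000297). In the 17 of these 18 other than TNFSF15 the 2 means had opposite signs.

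The 4 ErbB2-KD arrays lay wholly below the 4 labelled MUC4-KD arrays for 18 of the 33 members, beside 11.3% of all genes, and wholly above for 2, beside 9.09%. Each of the 3 slides held both experiments, and 25 of the 33 members had 1 sign within all 3. Among them were the 18 called, which were chosen on these same arrays. The share of all genes with 1 sign on all 3 slides was not computed, so the 25 cannot be set against it. Without labelled MUC4-KD array 1 or array 3 the count of 18 was 11, and with median centring it was 2. The share of all genes called was smaller in these fits too. LTB differed by -5.68, -6.07 and -5.47 on slides 1 to 3 and CCL2 by -2.10, -6.66 and -5.60. IL1A and ICAM1 did not pass (differences of -2.07 and -1.36, adjusted p = 0.0652 and 0.0801), and IL1B, at -0.29 ± 1.13, was too variable to place.

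**Figure D4:**
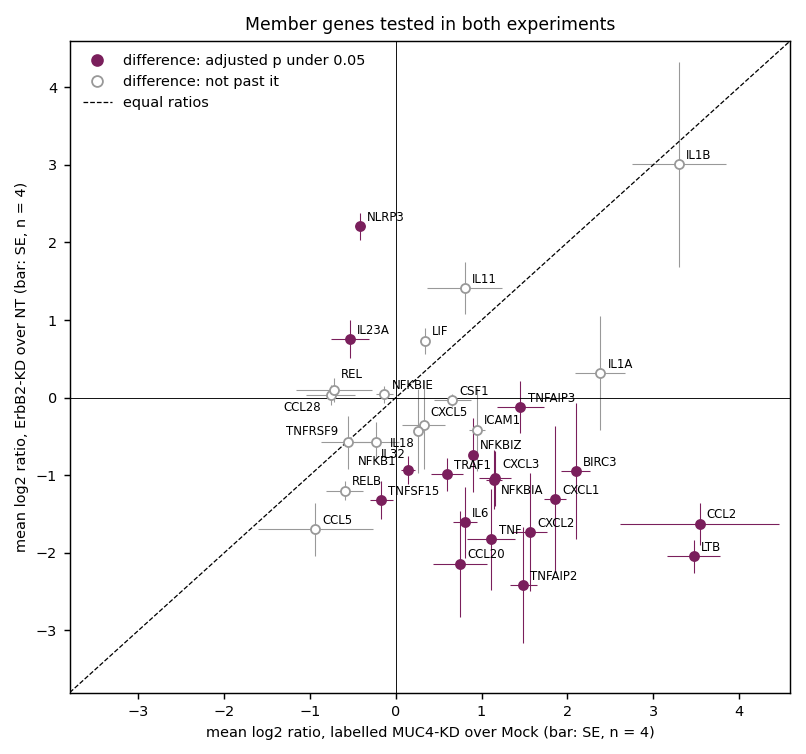
Mean log2 ratio of ErbB2-KD over NT (vertical axis) against that of labelled MUC4-KD over Mock (horizontal axis) for the 33 members tested in both; bars are the SE of 4 arrays (SD over the square root of n), filled points are members whose difference passed an adjusted p of 0.05, and the dashed line marks equal ratios. LTB and CCL2 lie at the lower right, with 3.47 and 3.54 on the horizontal axis, NLRP3 at the upper left, and IL1B at the upper right near the line; with the MUC4-KD labels crossed the picture would be mirrored left to right.

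Because MUC4 goes against its label, the difference was also tested with the labelled MUC4-KD ratios turned. Then 11 of 33 members differed, 7 higher and 4 lower in ErbB2-KD. A larger share of all genes was called in that reading than as labelled. The 11 members therefore stand nearer to the share of all genes than the 18 called as labelled. CXCL1, CXCL2, CXCL3 and NFKBIA, which differ by 2.19 or more as labelled, then had differences of 0.55, -0.17, 0.12 and 0.09 with adjusted p from 0.642 to 0.873. LTB (1.43, adjusted p = 0.0178), RELB (-1.80, adjusted p = 0.00195), CCL5 (-2.64, adjusted p = 0.0189), NLRP3 (1.79, adjusted p = 0.001) and IL1B (6.31, adjusted p = 0.00746) differed in that reading. The signs of the labelled MUC4-KD ratios, and so of these differences, follow the channel labels, which these arrays alone do not settle.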

How the data were processed

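RNA of 4 ErbB2-KD and 4 MUC4-KD arrays was hybridised by the authors to human 44K Agilent 2-colour arrays, with the labelled knockdown in Cy5 on 2 arrays of each experiment. The authors deposited the Feature Extraction 10.5.1.1 output of each array, whose median spot and background intensity values were used here, and log10 ratios of Cy5 over Cy3. The deposited table of log10 ratios equals these, turned to knockdown over control, within 4.99e-06, and was not used separately. The authors used GeneSpring from there. The intensities were then processed with limma 3.58.1 (R 4.3.3): normexp background correction used an offset of 50, arrays were normalized by loess with outlier spots left out, ratios were turned by the labelled dyes, and the 43376 spots were averaged to 41000 probes. A probe was tested if well above background on all 4 arrays in either RNA. limma's lmFit and eBayes set the mean log2 ratio of an experiment against 0 and, over all 8 arrays, the 2 means against each other, both with Benjamini-Hochberg adjustment over all probes. A gene was read from its brightest tested probe and called at an adjusted p under 0.05.

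Arrays limit the precision by their number: 4 per experiment, where an exact sign-flip test cannot go below p = 0.125. Where nothing shows separate cultures, p-values measure the spread between these arrays. A bound ("at least N-fold") is the mean of the bright RNA over, per array, the higher of the dim probe's value and the lowest signal among probes above background, after loess and Aquantile; it is open to dye bias.

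The members and lists were chosen with earlier results of these data known. Array-by-array values are given for members called in any comparison and for NFKB1, RELB, REL, NFKBIA and TNFAIP3; of the lists (signalling machinery, receptors, other targets) those called with a log2 ratio of at least 1 in size are named, and LTBR and IRF1 were named after their values were seen. Promoters were the 250 bases before the start of 33 members in a RefSeq table (GRCh38.p14), matched by symbol. The replicate numbers did not pair the arrays. The steps were tested on simulated data. The alternatives are listed with their effects in the closing section. One marker of the leukocyte list is not reported here.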

Additional observations from a re-analysis of the deposited data

Results flagged for a closer look

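Among 72 groups of 4 arrays (a member in 1 experiment), 9 had 1 array far from the other 3 by Dixon's 95% criterion, which compares its gap with the range. Chance gives about 1 in 20 such groups. ErbB2-KD array 2 (clone EV12) was that array for TNF (-3.77, others -1.22 to -1.08), RELB (-1.56, others -1.13 to -1.05) and REL (-0.37, others 0.22 to 0.30). ErbB2-KD array 1 was low for LIF (0.24, others 0.88 to 0.92). Labelled MUC4-KD array 4 was low for CCL2 (0.80, others 4.05 to 4.69) and CXCL6 (0.044, others 0.83 to 0.88). By Feature Extraction's log ratios it had 6.38 for CCL2 (others 8.51 to 8.66) and 2.15 for CXCL6 (others 3.64 to 4.15). Labelled MUC4-KD array 2 stood apart for CXCL5 (-0.42), TNFRSF9 (-1.48) and NFKBIZ (1.06). Over all probes, labelled MUC4-KD array 4 correlated less with arrays 1 to 3 of its experiment than those did with each other. The part of this in the results above was not tested. ErbB2-KD array 2 and labelled MUC4-KD array 4 were both on slide 1.

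The 18 members whose ratios differed between the experiments by limma had these differences of log2 ratio, ErbB2-KD minus labelled MUC4-KD. Among chemokines they were -3.17 for CXCL1, -3.30 for CXCL2, -2.19 for CXCL3, -5.17 for CCL2 and -2.89 for CCL20. For cytokines they were -2.42 for IL6 and 1.29 for IL23A. In the TNF superfamily they were -5.51 for LTB, -2.94 for TNF and -1.15 for TNFSF15 (-0.40 by its second probe, which did not pass). For NFKB1 and the inhibitors they were -1.08 for NFKB1, -2.20 for NFKBIA, -1.64 for NFKBIZ and -1.58 for TNFAIP3. For the other targets they were -3.90 for TNFAIP2, -3.04 for BIRC3, -1.58 for TRAF1 and 2.63 for NLRP3.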

How the results depend on the processing

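No member's log2 ratio that passed the threshold, as reported or under an alternative, changed sign between them (turned labels aside). Of 1463 values of single members under an alternative, 1206 kept their side of the threshold, 213 lost it and 44 gained it. The count of members called moved by over 1.5 times as follows. In ErbB2-KD it was 6, and 1 with median centring in place of loess, 1 with no filter on dim probes, 3 with a filter in both channels, 3 with a dye term, 14 with 1 fit over all 8 arrays, 0 by the methods' t-test (12 at an unadjusted p of 0.05) and 13 for a 2-fold change at an unadjusted p under 0.01. Leaving out 1 array gave 0 to 6: 0 without array 1 and without array 3 (21 and 17 at an unadjusted p of 0.05), 1 without array 4 and 6 without array 2. In labelled MUC4-KD it was 21, and 0 with median centring, where 16 had an unadjusted p under 0.05 and 28 of 39 were above 0, and 0 by the methods' t-test (22 unadjusted). Leaving out 1 array gave 4 to 26: 9, 11, 4 and 26 without arrays 1 to 4. For the difference it was 18, and 2 with median centring, 4 by the methods' t-test, and 11 with the labelled MUC4-KD ratios turned, a reading added after the data were seen. Leaving out 1 array gave 11 to 21, with 11 without labelled MUC4-KD array 1 and without array 3. Where a count moved by over 1.5 times, the share of all genes called moved the same way. The exception was the turned ratios, where that share rose while the member count fell. These counts therefore do not separate a shift of the members from a shift of all genes. The causes of these shifts were not tested.

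Under every other alternative the counts were 5 to 8 in ErbB2-KD, 14 to 25 in labelled MUC4-KD and 12 to 20 for the difference. In labelled MUC4-KD these were 14 for a 2-fold change at an unadjusted p under 0.01, 16 with no filter on dim probes, 18 with a filter in both channels, 19 with arrays 1 with 3 and 2 with 4 averaged (in case they were dye swaps of the same clones), 22 with 1 fit over all 8 arrays, 24 with Feature Extraction's log ratios and 25 with a dye term. For the difference they were 13 with no filter, 14 with a filter in both channels and 20 with a dye term. Offset 10, slide as a block, an intensity trend and all probes of a gene averaged lay within these ranges. The slide correlation was estimated over all 8 arrays. The replicate numbers are shared by the experiments, but deviations of same-numbered arrays correlated at -0.119, -0.24, -0.0485 and -0.127, so they were not treated as pairs; with the replicate block the difference had 12 calls, 2 higher and 10 lower. Dim probes limit the low values: 7 matched members were not tested in ErbB2-KD and 1 in labelled MUC4-KD.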
